A study of Saccharomyces cerevisiae with 6 samples.

Results

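The 33 genes described here encode the enzymes that carry sugar to ethanol in yeast and the proteins that control them. They were taken by systematic name from a fixed list that covers the hexose kinases, each step from PGI1 to the pyruvate kinases, the pyruvate decarboxylases, the alcohol dehydrogenase genes ADH1, ADH3, ADH4 and ADH5, the PFK26, PFK27 and FBP26 enzymes of fructose-2,6-bisphosphate, and the transcription regulators GCR1, GCR2 and TYE7. All 33 had a row among the 6572 listed features of S. cerevisiae BY4741, and each had at least 45 reads in every library. The series holds 3 libraries each of BY4741 and of S. boulardii Biocodex, a probiotic yeast, all grown for 6 h in a medium called ILM in the labels, to mid-exponential phase. BY4741 is a haploid laboratory strain derived from S288C that carries deletion alleles of HIS3, LEU2, MET17 and URA3, and LEU2, URA3 and MET17 had 0 reads in its 3 libraries, while HIS3, deleted in part, stood between 37.8 and 62.2 CPM. No treatment is labelled, so strain is the only factor that differs between the groups. The Biocodex tables share 0 identifiers with those of BY4741, so the genes were not compared between strains.

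Glycolysis splits a hexose into a pair of trioses and oxidises them to pyruvate, and in yeast growing on sugar pyruvate is then decarboxylated and reduced to ethanol even when oxygen is present. Most steps after phosphofructokinase are catalysed by abundant proteins, and several have duplicated genes whose copies are used under different growth conditions. The transcription factors Rap1, Gcr1 and Gcr2 drive many of these genes, and Tye7, a basic helix-loop-helix protein, binds E-boxes with the letters CACGTG at some of them. Levels below are given as CPM, the reads of a gene scaled to a common library total, or, where genes are set against each other, as CPM per kb of coding length. The depth of BY4741 was 18707708 counted reads in replicate 1, 5181546 in replicate 2 and 4581414 in replicate 3.

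The 33 genes took 14.2%, 14.6% and 11.5% of the counted reads in replicates 1, 2 and 3, a mean of 13.4% ± 1.70 (SD, n = 3). The 95% Wilson interval, which covers counting error only, was 11.45% to 11.51% in replicate 3 and 14.16% to 14.20% in replicate 1, so the gap between these libraries exceeded counting error. Of the members, 16 reached 1000 CPM in each library, against 1.45% of all listed features. The median member stood at 617 CPM per kb and the median of the 5898 features that match a named gene at 45.9, and 13 members were among the 50 highest of those genes per kb. Only GPM3, PFK27 and PDC5 lay below the median of all matched genes. Separate cultures are not stated for the 3 libraries, so the SDs may be technical. An exact two-sided sign-flip test over 3 libraries cannot go below p = 0.25, so the ratios below are given with their values in each library and no p.

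**Figure D1:**
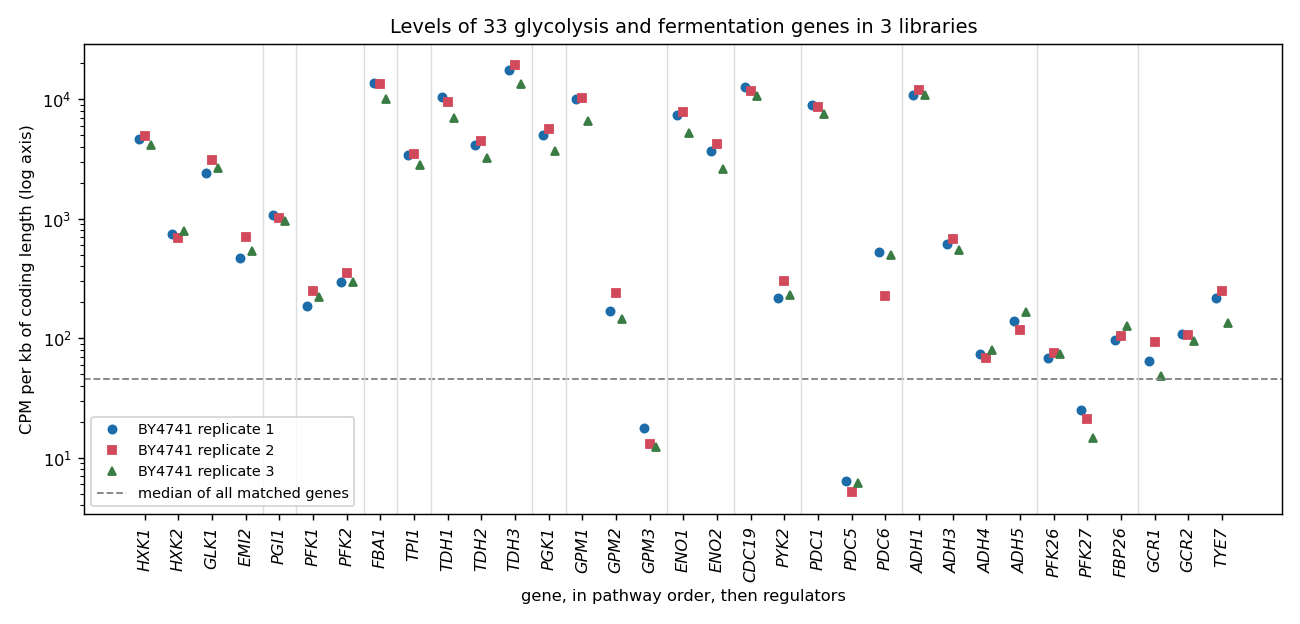
CPM per kb of coding length (log axis) of the 33 genes in each of the 3 BY4741 libraries, in pathway order and then the regulators, with the median of all matched genes as a dashed line. TDH3 is the highest at 16731 on average and PDC5 the lowest at 5.90, and 30 members lie above the dashed line.

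Upstream sequence was searched for the letters bound by the known regulators. In the window from 250 bases before to 50 bases after the start codon, CTTCC, the Gcr1 box, occurred on either strand in 17 of 33 members and in 45.7% of 5897 genes, and CACGTG in 0 members and in 2.95% of genes. In a window of 800 bases before the start, which was chosen after the first counts had been seen because known activating sites of these genes often lie farther upstream, CACGTG occurred in 11 of 33 members and in 9.11% of 5893 genes. Among them were 7 of the 15 members with at least 1000 CPM per kb. The share among all genes of that level was not counted, so no link between these letters and level is drawn. CTTCC occurred in that window in 29 of 33 members and in 81.8% of genes, so these letters are common in any gene. A search for the Rap1 consensus in its strict form matched 1 member, GPM2, and 0.645% of genes. A match describes letters in a window and says nothing of binding. Nor does the lack of a match to the strict Rap1 form show that a gene has no Rap1 site.

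The stretches around CACGTG are shown for the 7 abundant members because they carry the element that Tye7 is known to bind. They are from the S288C reference assembly R64 (RefSeq), read on the strand of the gene, 5′ to 3′, with CACGTG in capitals.
HXK1, chrVI:255493-255522, minus strand, 461 bases before the start codon: ttgaaactcccgCACGTGtgccccgtttgt
GLK1, chrIII:50469-50526, plus strand, with matches 357 and 329 bases before the start codon: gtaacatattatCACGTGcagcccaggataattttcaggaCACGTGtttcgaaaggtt
TDH1, chrX:338003-338032, plus strand, 256 bases before the start codon: tgcgacggtatcCACGTGcagaacaacata
TDH2, chrX:455065-455094, minus strand, 401 bases before the start codon: tcttttctttacCACGTGatctgcggcatt
PGK1, chrIII:137190-137219, plus strand, 544 bases before the start codon: accctcataaagCACGTGgcctcttatcga
ENO1, chrVII:1000259-1000288, plus strand, 656 bases before the start codon: tataaatgccggCACGTGcgatcatcgtgg
CDC19, chrI:71252-71281, plus strand, 522 bases before the start codon: acccaactctgcCACGTGggtcgttttgcc

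The TDH1 stretch also lies in the small reading frame YJL052C-A, and the other 6 overlap no annotated coding sequence. The flanking bases differ from gene to gene. GLK1 alone has a pair of matches. The other abundant members, PGI1, FBA1, TPI1, TDH3, GPM1, ENO2, PDC1 and ADH1, have none in the 800 bases. CACGTG also occurred once each before PFK26, PFK27, PYK2 and ADH3, whose levels were lower.

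HXK1 and GLK1, rather than HXK2, gave most of the hexose kinase transcripts. Hexokinase 2 is the main hexose kinase of cells on high glucose and also takes part in glucose repression. HXK1 and the glucokinase gene GLK1 are known as repressed by glucose. The part of such regulation in the levels of these and later genes was not tested. HXK1 (YFR053C) stood at 4655, 4895 and 4152 CPM per kb in replicates 1, 2 and 3, and GLK1 (YCL040W) at 2413, 3124 and 2660. HXK2 (YGL253W) stood at 747, 696 and 794 CPM per kb, below both in each library without overlap. EMI2 (YDR516C), the paralog of GLK1, stood at 465, 701 and 538 CPM per kb, which overlapped HXK2 in range and lay above it in replicate 2 only. HXK1 exceeded HXK2 6.12-fold per kb (log2 2.61 ± 0.21, SD, n = 3) and GLK1 1.68-fold (log2 0.75 ± 0.17, SD, n = 3), and GLK1 exceeded EMI2 4.85-fold. HXK1 held 53.1% ± 2.78 (SD, n = 3) of the summed level of this step. The coding sequences of HXK1 and HXK2 are 77.6% identical and share no run of 50 bases. GLK1 overlaps the reading frame YCL042W, a listed feature with 66, 57 and 16 reads, so its count may miss reads from that part.

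The upper steps from glucose-6-phosphate to fructose-1,6-bisphosphate were the lowest of the 12 enzyme steps. PGI1 (YBR196C), the isomerase, stood at 1077, 1018 and 950.3 CPM per kb. PFK1 (YGR240C), the alpha subunit of phosphofructokinase, stood at 187, 251 and 223 CPM per kb, and PFK2 (YMR205C), the beta subunit, at 295, 354 and 296. Both subunits together reached 535 ± 62.8 CPM per kb (SD, n = 3), the lowest sum of any step in each library. The subunits form one enzyme in equal numbers, and PFK2 exceeded PFK1 1.43-fold in transcript level per kb (log2 of PFK1 over PFK2 -0.52 ± 0.13, SD, n = 3). The highest step exceeded phosphofructokinase 66.8-fold, 54.9-fold and 45.5-fold in replicates 1, 2 and 3.

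The enzymes of fructose-2,6-bisphosphate, the activator of phosphofructokinase, were low beside the enzyme steps. Of these genes, only PFK27 lay below the median of all matched genes, 45.9 CPM per kb. PFK26 (YIL107C), a kinase that forms the activator, stood at 68.9, 75.4 and 73.6 CPM per kb. PFK26 had the smallest spread of the 33 genes, with a coefficient of variation of 4.65%. PFK27 (YOL136C), the other kinase, whose transcription is known to rise with glucose, stood at 24.8, 21.0 and 14.6 CPM per kb, from 555, 130 and 80 reads. The exact 95% Poisson intervals of PFK27 were 27.2 to 32.2 CPM in replicate 1 and 13.8 to 21.7 CPM in replicate 3, so these libraries differed beyond counting error. FBP26 (YJL155C), the phosphatase that removes the activator, stood at 96.5, 105 and 126 CPM per kb. It exceeded PFK26 1.49-fold per kb in 3 of 3 libraries, but by reads alone PFK26 was the higher gene in 3 of 3 (log2 0.29).

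The steps from aldolase on held the most abundant transcripts. FBA1 (YKL060C), aldolase, stood at 13676, 13344 and 10142 CPM per kb. TPI1 (YDR050C), triose phosphate isomerase, stood lower at 3437, 3511 and 2843, and PGK1 (YCR012W), phosphoglycerate kinase, at 5013, 5660 and 3694. Each of these 3 genes had its lowest value in replicate 3. The listed features YCR013C and YKL153W, known as doubtful reading frames that overlap PGK1 and GPM1, held at most 289 and 334 reads. If the authors' counting dropped reads that fall on both features, the levels of PGK1 and GPM1 are too low, which was not tested.

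Glyceraldehyde-3-phosphate dehydrogenase was the highest step in each library, at 29669 ± 5277 CPM per kb (SD, n = 3), or 26.2% ± 1.24 of the 12 step sums (SD, n = 3). TDH3 (YGR192C), the main gene of exponential cells, stood at 17574, 19264 and 13354 CPM per kb. TDH1 (YJL052W), known for expression as cells enter stationary phase, stood at 10457, 9470 and 6993, and TDH2 (YJR009C) at 4168, 4470 and 3256. TDH1 thus exceeded TDH2 2.25-fold (log2 of TDH2 over TDH1 -1.17 ± 0.14, SD, n = 3), and TDH3 held 56.4% ± 1.73 of the step (SD, n = 3). The ratio of TDH3 to TDH2 was the steadiest of the 23 gene pairs, at 4.21-fold (log2 2.07 ± 0.036, SD, n = 3). Their coding sequences are 95.8% identical. Of the runs of 50 bases, 24.4% in TDH3 and 31.3% in TDH2 also occur in another gene. The split of reads between TDH3 and TDH2 is thus less certain than for most other pairs. TDH1 is 90.2% identical to TDH2, and 15.7% of its runs occur in another gene, so their ratio is uncertain too.

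**Figure D2:**
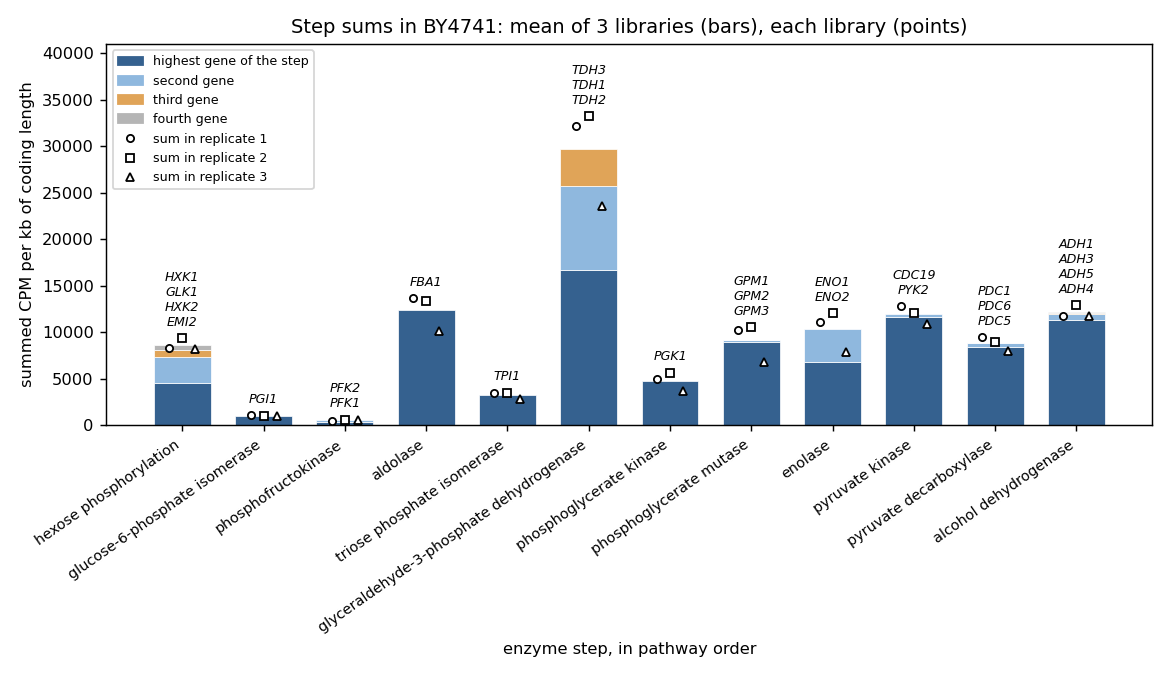
Summed CPM per kb of the genes of each of the 12 enzyme steps, in pathway order. Bars are means of 3 BY4741 libraries, divided by gene from the highest (bottom) to the lowest, and open symbols are the step sums of single libraries. The dehydrogenase step at 29669 stands above all others, phosphofructokinase at 535 is the lowest, and GPM1, CDC19, PDC1 and ADH1 fill nearly all of their bars. ADH2, outside the list, is not in the alcohol dehydrogenase bar.

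Lower glycolysis showed both shared and single-gene steps. GPM1 (YKL152C), phosphoglycerate mutase, stood at 10022, 10268 and 6608 CPM per kb and held 97.8% ± 0.318 of its step (SD, n = 3). Its homologs GPM2 (YDL021W) and GPM3 (YOL056W), which are thought to lack function in glycolysis, stood at 168, 241 and 144 and at 17.7, 13.1 and 12.2 CPM per kb. Enolase was shared, with ENO1 (YGR254W) at 7423, 7868 and 5235 CPM per kb and ENO2 (YHR174W) at 3661, 4222 and 2631. ENO2 is the enolase gene known to be induced by glucose, and ENO1 exceeded it 1.96-fold (log2 of ENO2 over ENO1 -0.97 ± 0.06, SD, n = 3). The coding sequences of ENO1 and ENO2 are 94.8% identical and share 23.6% of their runs of 50 bases. CDC19 (YAL038W), the main pyruvate kinase, stood at 12604, 11785 and 10639 CPM per kb and held 97.9% ± 0.414 of its step (SD, n = 3). PYK2 (YOR347C), the pyruvate kinase gene repressed by glucose, stood at 216, 303 and 232 CPM per kb, 47.1-fold below CDC19.

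Most pyruvate decarboxylase transcripts came from PDC1 (YLR044C), and the next gene was PDC6, not PDC5. PDC1 stood at 8917, 8684 and 7511 CPM per kb. PDC5 (YLR134W), known to be raised when PDC1 is lost or thiamine is short, had 202, 45 and 48 reads, or 6.38, 5.13 and 6.19 CPM per kb, and ranked 5311 of 5898 genes. PDC6 (YGR087C), known as a minor gene that is raised when sulfur is limiting, stood at 525, 226 and 497 CPM per kb and exceeded PDC5 66.2-fold (log2 of PDC5 over PDC6 -6.05 ± 0.51, SD, n = 3). The gap was smallest in replicate 2, at a log2 of -5.46. PDC1 exceeded PDC6 21.5-fold (log2 4.42 ± 0.73, SD, n = 3). PDC1 and PDC5 are 87.2% identical in coding sequence, but 0.974% of their runs of 50 bases are shared with another gene. At a ratio above 1000-fold, the share of PDC5 reads that stem from PDC1 was not tested.

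ADH1 (YOL086C), which reduces acetaldehyde to ethanol, stood at 10890, 12083 and 10978 CPM per kb and held 93.1% ± 0.202 of the summed level of the 4 alcohol dehydrogenase genes (SD, n = 3). ADH3 (YMR083W), the mitochondrial enzyme, stood at 616, 682 and 553 CPM per kb, 18.4-fold below ADH1. ADH5 (YBR145W) stood at 140, 117 and 166 CPM per kb and ADH4 (YGL256W), a dehydrogenase of another protein family, at 74.2, 68.5 and 80.0. Among related genes outside the 33, ADH2, which oxidises ethanol and is repressed by glucose, stood at 1181, 909 and 1200 CPM per kb, above ADH3 in each library. SFA1 stood at 140 ± 17.0, ADH6 at 238 ± 49.0 and ADH7 at 2.59 ± 2.99 CPM per kb (SD, n = 3 each), with 0 ADH7 reads in replicate 3. Runs of 50 bases shared with another gene made up 14.0% of ADH1 and 14.0% of ADH2, so both counts are uncertain in part, and reads of ADH1 placed on ADH2 would weigh more on the lower level of ADH2.

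In the order of step sums, the dehydrogenase step was followed by aldolase, alcohol dehydrogenase, pyruvate kinase, enolase, phosphoglycerate mutase, pyruvate decarboxylase, hexose phosphorylation, PGK1, TPI1, PGI1 and phosphofructokinase. The dehydrogenase step lay above aldolase and enolase above phosphoglycerate mutase in 3 of 3 libraries, and each of the steps from hexose phosphorylation down lay above the next in 3 of 3. Between them the order was less certain. Aldolase exceeded alcohol dehydrogenase, alcohol dehydrogenase exceeded pyruvate kinase and pyruvate kinase exceeded enolase in 2 of 3 libraries each, as phosphoglycerate mutase did pyruvate decarboxylase. Pyruvate decarboxylase exceeded hexose phosphorylation in 1 of 3. These neighbours do not differ beyond their spread. Steps farther apart also changed places. In replicate 3, hexose phosphorylation at 8143 and pyruvate decarboxylase at 8014 CPM per kb exceeded enolase at 7866, but not in replicates 1 and 2.

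**Figure D3:**
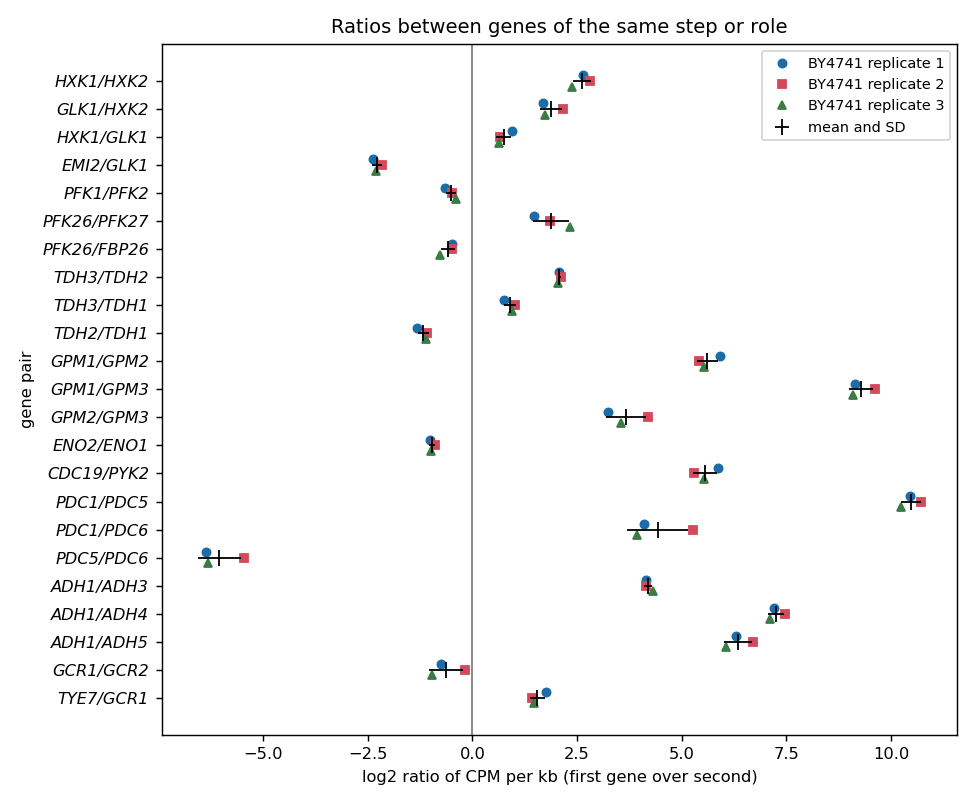
Log2 ratio of CPM per kb between genes of the same step or role for 23 pairs, with a symbol for each BY4741 library and the mean with its SD in black. Per kb, each pair keeps its sign in 3 of 3 libraries, and by reads alone 20 of the 23 do. PDC1 over PDC5 is the widest at 10.47 and TDH3 over TDH2 has the smallest SD at 0.036.

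Per kb, all 23 pairs kept the same sign in 3 of 3 libraries, and 10 exceeded 10-fold on average. By reads alone, 20 of the 23 kept that sign in 3 of 3. The pairs were chosen with earlier results known, and many share a gene. The share among other gene pairs was not computed, so the count describes these pairs only. The SD of a log2 ratio ranged from 0.0359 to 0.732, with a median of 0.215. The pairs with the largest SDs held PDC6, GPM2 or PFK27. PFK1 with PFK2 and ENO1 with ENO2 had SDs of 0.13 and 0.06. The SDs of ADH1 with ADH3 and of EMI2 with GLK1, at 0.096 and 0.11, were also small.

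The regulators were transcribed at modest levels. GCR1 (YPL075W), the activator that binds CTTCC, stood at 64.4, 93.3 and 48.7 CPM per kb, and GCR2 (YNL199C), its partner, at 108, 106 and 94.8. GCR2 exceeded GCR1 1.55-fold (log2 of GCR1 over GCR2 -0.63 ± 0.40, SD, n = 3). By reads alone that log2 was -0.077, and GCR1 was the higher gene in replicate 2. TYE7 (YOR344C) stood at 218, 249 and 135 CPM per kb, 2.93-fold above GCR1 (log2 1.55 ± 0.18, SD, n = 3). By reads alone the log2 was 0.12, with TYE7 slightly the lower in replicate 2, so the order of TYE7 over GCR1 rests on coding length. GCR1 is the only member with an intron in its coding part, against 4.65% of matched genes. Of the general factors known to act at glycolytic promoters, ABF1 stood at 18.6 ± 8.54, REB1 at 21.8 ± 9.35 and MCM1 at 265 ± 41.5 CPM per kb (SD, n = 3 each). RAP1 stood at 21.0, 45.3 and 65.6 CPM per kb in replicates 1, 2 and 3, a 3.12-fold range. PDC2, the activator of PDC1 and PDC5, stood at 23.2 ± 10.2, MIG1, a repressor active on glucose, at 415 ± 27.2, and FBP1, the gluconeogenic enzyme that opposes phosphofructokinase, at 177 ± 101 CPM per kb (SD, n = 3 each).

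Of the 32 members of at least 10 CPM on average, 1 differed over 2-fold between its highest and lowest library, against 25.7% of 5131 such features. With replicate 2 left out the values were 0 members and 10.8% of features, and with replicate 3 left out 1 member and 11.6%. That share is not matched for abundance, and most members are more abundant than the typical feature, so counting error is smaller for them. The exception was PDC6, with 888, 383 and 840 CPM in replicates 1, 2 and 3, a 2.32-fold range from 16608, 1984 and 3849 reads. GCR1 followed at 1.92-fold and TYE7 at 1.84-fold. PDC5, the member under 10 CPM, ranged 1.24-fold, with overlapping Poisson intervals.

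Most members were lower in replicate 3 than in the other libraries. Replicate 3 had the lowest of the 3 values for 20 of 32 members, against 31.0% of all 5131 features. Replicate 2 had the highest for 19 of 32, against 35.5%, and the lowest for 4, against 38.1%. The median log2 deviation of the members from the mean of the other 2 libraries was 0.12, 0.17 and -0.21 in replicates 1, 2 and 3, and that of all features -0.0061, -0.014 and 0.070. The value of replicate 1 turned to -0.092 without replicate 3. The deviations of a gene in 3 libraries balance out, so these values are not independent of each other.

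Among the enzyme genes of at least 1000 CPM, the lowest deviations of replicate 3 lay between aldolase and enolase. The log2 deviations were -0.41 for FBA1, -0.29 for TPI1, -0.51 for TDH1, -0.41 for TDH2, -0.46 for TDH3, -0.53 for PGK1, -0.62 for GPM1, -0.55 for ENO1 and -0.58 for ENO2. ADH1 at -0.06, CDC19 at -0.20, PDC1 at -0.23 and HXK1 at -0.20 deviated less. TYE7 at -0.78 and GCR1 at -0.67 were the lowest of all members in that library, followed by PFK27 at -0.63, and GCR2 stood at -0.18. In that library 25 of the 32 members lay below 0. A link between the regulators and the enzyme genes was not tested. In replicate 2 GCR1 was the highest member at 0.73. The members with their lowest value in replicate 2 were HXK2 at -0.15, ADH4 at -0.17, ADH5 at -0.38 and PDC6 at -1.17. Ribosomal protein genes had median deviations of 0.30, -0.60 and 0.30 in replicates 1, 2 and 3, so the libraries also differed in genes outside the pathway, and replicates 2 and 3 were less deeply sequenced. The part of either in these deviations was not tested.

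**Figure D4:**
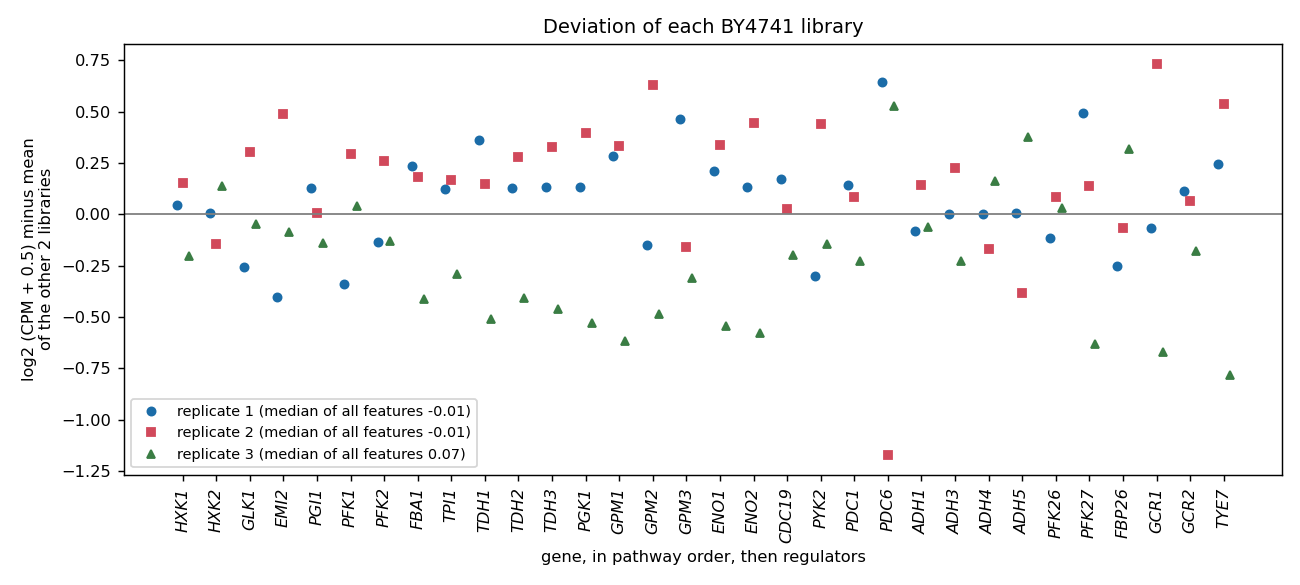
Log2 (CPM + 0.5) of each BY4741 library minus the mean of the other 2 libraries, for the 32 members of at least 10 CPM on average. In replicate 3 (triangles) 25 of the 32 lie below 0, among them the genes from FBA1 to ENO2, PFK27, TYE7 and GCR1. PDC6 stands at -1.17 in replicate 2.

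Codon use set many members apart. It was not itself used to choose the genes, but the list was chosen with earlier results known. A codon adaptation index was computed against 132 ribosomal protein genes, and a value near 1 means that a gene uses the codons these genes prefer. The members had a median of 0.582, from 0.129 for GCR2 to 0.923 for TDH3, and all matched genes a median of 0.194. GCR1, GCR2 and PYK2 lay below the median of all matched genes. Across the 33 genes, which are not independent replicates and include paralogs, Spearman's rho between the index and the mean level per kb was 0.74, and across all 5898 matched genes 0.31. Some paralogs of the same step differed, with CDC19 at 0.898 and PYK2 at 0.172, PDC1 at 0.906 and PDC6 at 0.222, and GPM1 at 0.835 and GPM2 at 0.238. Others were close, with ENO1 at 0.888 and ENO2 at 0.898, TDH1 at 0.873, TDH2 at 0.909 and TDH3 at 0.923, PFK1 at 0.543 and PFK2 at 0.582, and GLK1 at 0.197 and EMI2 at 0.225.

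Some members departed from that order. PDC5 had an index of 0.770, above 98.1% of matched genes, and a level above 9.95% of them. ADH4 had an index of 0.634, above 96.4% of genes, and a level above 63.2%. The reverse held for GLK1, with an index of 0.197, above 52.2% of genes, and a level above 99.1%, and for PYK2, with an index above 28.5% of genes and a level above 86.8%. Within hexose phosphorylation the order was turned, since HXK2 had the highest index of the step at 0.709 and HXK1 one of 0.527, with HXK1 the more abundant transcript in 3 of 3 libraries.

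**Figure D5:**
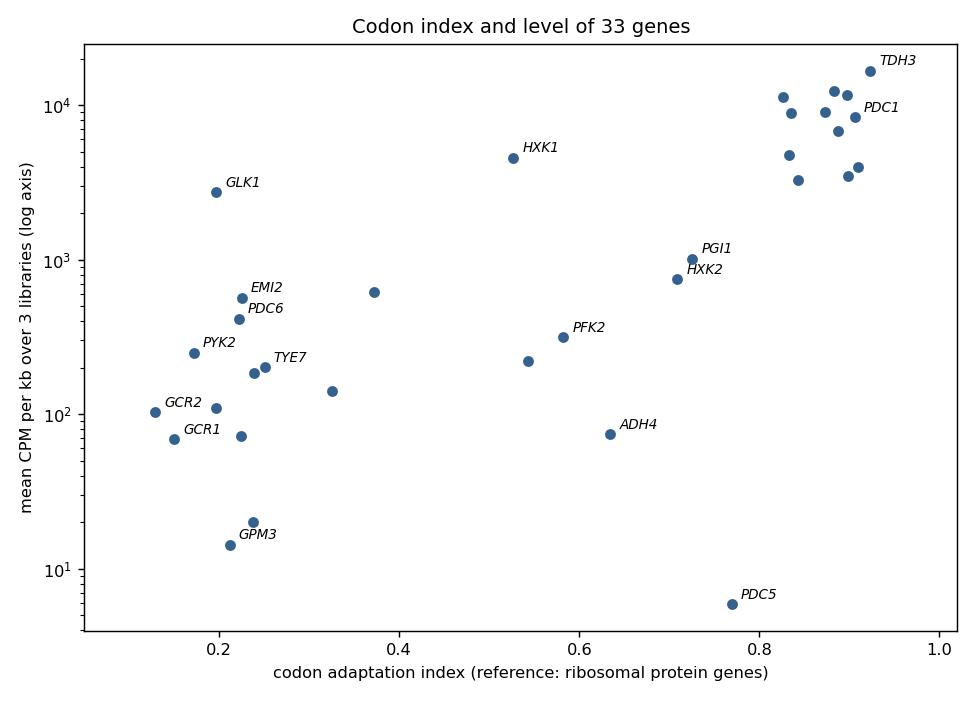
Mean CPM per kb over 3 BY4741 libraries (log axis) against the codon adaptation index of each of the 33 genes, with some genes named. The 12 genes from ADH1 at 0.826 to TDH3 at 0.923 stand between 3264 and 16731 CPM per kb, HXK1 stands at 4567 with 0.527, and PDC5 lies apart with an index of 0.770 and a level of 5.90.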

How the data were processed

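Each library's deposited table holds the authors' raw read counts per feature, as whole numbers with no normalization. The tools named, per the submitters' processing notes, are TopHat, HTSeq, FastQC and DESeq2, with no version. Genome build, annotation, read length and strand handling are not stated in the labels, so reads of antisense neighbours may not be told apart. Replicates were not pooled. The 33 members, the gene pairs and the motifs were chosen with earlier results of these data known.

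Counts were divided by library totals (CPM) and by coding length in kb from the S288C assembly R64 (RefSeq), which matched 5898 of 6572 features. Only libraries of the same strain were compared, since 0 identifiers are shared between strains, and an edgeR test of strains was therefore not possible. Coding sequences were aligned globally; protein identity was planned but nucleotide identity is given instead. A gene would be called near-identical if over 50% of its 50-base runs occurred elsewhere, and 0 members were. The codon index is the geometric mean of codon weights relative to ribosomal protein genes. All members are named; genes outside the list came from a fixed set. Limits on 0 reads are 3 reads. Simulated data were used to check the calculation of the spread and the ratios. They had less spread between libraries than the real counts, so the check does not cover the real noise. Scaling alternatives used edgeR 4.0.16 and DESeq2 1.42.0 in R 4.3.3; other steps used Python 3.11.15, numpy 2.4.6, pandas 2.3.3, SciPy 1.17.1, Biopython 1.88 and matplotlib 3.10.9. Intervals cover counting error only.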

Additional observations from a re-analysis of the deposited data

How the results depend on the processing

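No paired analysis was possible because the genes of the 2 strains share 0 identifiers and the ratios were taken within a single strain. Under TMM scaling, DESeq2 size factors and thinning to the smallest total, each of the 33 member levels moved by less than its SD. The median level ranged from 584 to 649 CPM per kb without single libraries. The share of reads ranged from 12.8% to 14.4% without single libraries. The count of 16 abundant members was 17 when 500 CPM per kb in each library was asked for. The number of members over 2-fold ranged from 0 to 1 without single libraries; it was 0 without replicate 2, where PDC6 was low. The share of all features over 2-fold was 18.0%, 10.8% and 11.6% without replicates 1, 2 and 3. The median deviation of replicate 1 ranged from -0.092 to 0.19, with the sign turned without replicate 3; the cause was not tested. By reads rather than per kb, the dehydrogenase step held 22.1% of the step sums, 21 of 23 pairs had the same sign in each library and 20 kept the sign they have per kb. PFK26 over FBP26 turned to a log2 of 0.29, since PFK26 is the longer gene, and GCR1 over GCR2 and TYE7 over GCR1 differed in sign between libraries. In 800 bases before the start, CTTCC was found in 29 members, CACGTG in 11 and the Rap1 consensus in 1, against 17, 0 and 0 in the shorter window; the longer window and the Rap1 search were chosen after seeing the data. Depth limits PDC5, GPM3 and PFK27, with 45 to 80 reads at their lowest.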
